A study of Homo sapiens with 2 samples.

Results

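Binding sites of RUNX2, a runt-domain transcription factor, and of MTA1, which belongs to the NuRD deacetylase complex, were examined at 9 genes of the TSC22 family and of the glucocorticoid response. The members were TSC22D1, TSC22D2, TSC22D3 and TSC22D4 of the family, and NR3C1, FKBP5, SGK1, KLF9 and ZBTB16 of the response. They were chosen by name and not by a rule on their peaks, out of 20037 protein-coding genes, but with earlier results of these data known. The window of a gene was its RefSeq span on GRCh38 with 50 kb on either side. These windows held 71 of 61700 RUNX2 peaks and 46 of 42683 MTA1 peaks. The study profiled untreated cells of MDA-MB-231, a triple-negative breast cancer line, by CUT&Tag, in which a transposase bound to an antibody cuts and tags the DNA around the protein for sequencing. There were 2 libraries, 1 with an antibody against RUNX2 and 1 with an antibody against MTA1, so no value below has a replicate. No agent was given to the cells, and no control library was analysed here. For both antibodies, the supplier named in the labels is not the one named in the methods. The total number of reads per library is unknown, and a missing peak may be an absent or a weak signal. The submitters' notes name an older build, but the peak positions follow the gene starts of GRCh38, and coordinates are given on it.

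TSC22 proteins carry a leucine zipper behind a conserved TSC box, and they pair with each other and with other proteins. TSC22D1 was found as a gene induced by TGF-beta. TSC22D3, also called GILZ, is a classical target of glucocorticoids and restrains inflammatory transcription factors. The glucocorticoid receptor, encoded by NR3C1, moves to the nucleus when it binds hormone and acts at enhancers that are often far from the gene. FKBP5, SGK1, KLF9, ZBTB16 and TSC22D3 are among the genes it induces in many cell types. The study assayed the TSC22D1 promoter by quantitative ChIP (qChIP) and reported that RUNX2, MTA1 and CUL4B were enriched there. It also reported higher TSC22D1 expression after RUNX2 depletion. The qChIP was a separate assay on cross-linked and sonicated chromatin, so a site without a peak here may still be enriched in it. The peaks of TSC22D1 are set here beside those of its relatives.

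The sequences on which these peaks rest are given first. The RefSeq promoter windows used here give 5 starts for TSC22D1, numbered from the most upstream of them. Starts 4 and 5 lie 139.3 and 139.7 kb downstream of start 1. The antisense primer of the qChIP assay, AGTCCCACCACTGTAA, matched 1 of all listed promoter windows exactly, and this was the window of start 4. The match is printed in capitals on the strand of the gene, with 250 bases before the start and 50 from it (GRCh38.p14, minus strand, chr13:44437199-44437498).
TSC22D1 start 4: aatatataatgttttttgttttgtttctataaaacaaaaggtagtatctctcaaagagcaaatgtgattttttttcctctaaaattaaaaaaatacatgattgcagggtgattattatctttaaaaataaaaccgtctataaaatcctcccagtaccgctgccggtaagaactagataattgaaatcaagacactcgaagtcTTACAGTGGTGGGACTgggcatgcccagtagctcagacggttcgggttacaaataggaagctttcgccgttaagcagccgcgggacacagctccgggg
The sense primer, TAAGGTTTGTGGCTCTACGG, matched no promoter window, so the length of the amplicon was not found.

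The primer match, at chr13:44437281-44437296, lay inside an MTA1 peak at chr13:44437165-44437315. This peak had a score of 5.56, higher than 26.8% of MTA1 peaks, and no RUNX2 peak overlapped it. The RUNX2 peak nearest to the primer lay 318 bp away, next to start 5. The bases of that RUNX2 peak are shown because they carry the shared site closest to the assayed one, with the single GC box (GGGCGG) in capitals (GRCh38.p14, minus strand, chr13:44436859-44436963).
TSC22D1 start 5: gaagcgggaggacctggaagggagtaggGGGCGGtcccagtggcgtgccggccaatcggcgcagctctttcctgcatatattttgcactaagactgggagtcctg

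In the windows of other members, 2 RUNX2 peaks at TSC22D3 starts are shown because they differ in the RUNX motif. The core TGTGGT, searched on both strands, is in capitals in the peak before start 3 (GRCh38.p14, minus strand, chrX:107717097-107717218) and does not occur in the peak at the first starts (chrX:107775808-107775946).
TSC22D3 start 3: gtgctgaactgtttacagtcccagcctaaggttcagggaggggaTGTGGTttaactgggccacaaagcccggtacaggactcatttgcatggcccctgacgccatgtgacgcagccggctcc
TSC22D3 starts 1 and 2: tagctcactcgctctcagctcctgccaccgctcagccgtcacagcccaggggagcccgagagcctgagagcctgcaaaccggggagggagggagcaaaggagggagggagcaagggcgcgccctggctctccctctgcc
The parts of the promoter windows covered by RUNX2 peaks at SGK1 and FKBP5 are shown because each is rich in GC boxes, which are in capitals on either strand. The first is at start 3 of SGK1 (chr6:134174841-134175116, minus strand). The other is at start 2 of FKBP5 (chr6:35688866-35689142, minus strand).
SGK1 start 3: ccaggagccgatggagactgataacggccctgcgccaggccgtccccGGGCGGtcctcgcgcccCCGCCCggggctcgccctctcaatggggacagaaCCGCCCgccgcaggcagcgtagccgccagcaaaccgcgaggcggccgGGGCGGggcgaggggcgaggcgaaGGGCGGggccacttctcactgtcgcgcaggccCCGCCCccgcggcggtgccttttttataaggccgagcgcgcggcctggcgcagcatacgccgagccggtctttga
FKBP5 start 2: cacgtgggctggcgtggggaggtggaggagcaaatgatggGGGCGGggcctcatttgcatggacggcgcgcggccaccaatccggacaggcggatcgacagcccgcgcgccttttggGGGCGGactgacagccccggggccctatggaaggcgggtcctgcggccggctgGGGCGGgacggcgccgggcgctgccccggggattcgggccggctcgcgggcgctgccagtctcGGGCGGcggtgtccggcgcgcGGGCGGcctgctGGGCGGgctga
The SGK1 part had a GC content of 74.6% and held 6 GC boxes, and the FKBP5 part had 76.9% and 6.

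TSC22D1 had few peaks, and nearly all of them were shared. Its window of 245 kb held 3 RUNX2 and 4 MTA1 peaks, which was 1.22 and 1.63 per 100 kb. The density of RUNX2 peaks was higher than in 20.8% of protein-coding genes and that of MTA1 peaks higher than in 34.3%. All 7 peaks lay within 3 kb of a start, and all 3 RUNX2 peaks overlapped an MTA1 peak. The strongest pair lay before the first start. It consisted of a RUNX2 peak at chr13:44577343-44577969 with a score of 10.8, higher than 71.3% of its list, and an MTA1 peak at chr13:44577278-44577917 with a score of 13.4, higher than 75.9%. The pair at start 5, whose RUNX2 sequence is printed above, had ranks of 42.3% and 62.4%. The last pair lay 1413 bp beyond start 5, with ranks of 13.4% for a RUNX2 peak of the narrowest width and 62.9% for the MTA1 peak. The MTA1 rank was the higher in 3 of 3 pairs, and the differences, RUNX2 minus MTA1, were -4.60, -20.1 and -49.5 percentage points. Start 3, 102 kb downstream of start 1, had no peak of either list within 3 kb.

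**Figure D1:**
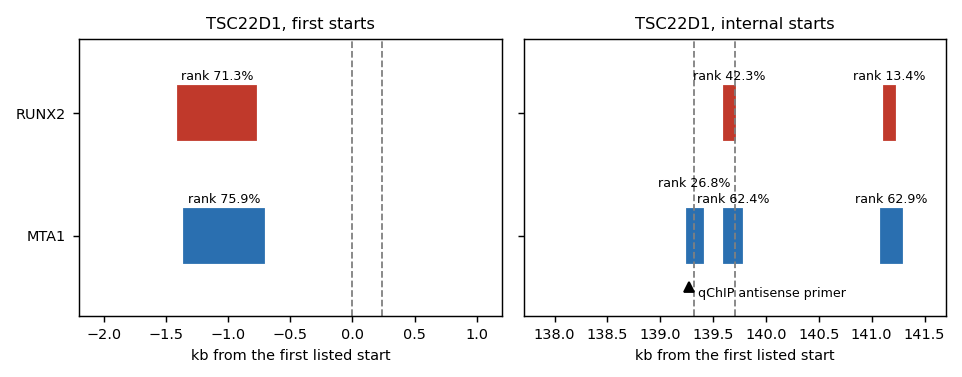
Peaks at the starts of TSC22D1. The horizontal axis is the distance in kb from the first listed start in the direction of transcription, boxes are peaks to scale with the percent of their list that scored lower, dashed lines are listed starts and the triangle is the match of the qChIP antisense primer. The primer sits in an MTA1 peak of rank 26.8% that no RUNX2 peak overlaps, while the other 3 MTA1 peaks each have a RUNX2 partner.

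The relatives of TSC22D1 had more RUNX2 peaks per length, and their sites differed in kind. TSC22D2, a less studied family member, had 9 RUNX2 and 5 MTA1 peaks. Its RUNX2 peak at the end of lower position, chr3:150408248-150409058, was 811 bp wide with a score of 17.7 and a rank of 84.7%. It overlapped an MTA1 peak at chr3:150408595-150408844 with a rank of 81.3%. This was the highest MTA1 rank near a start among the 9 members. At a further shared site the RUNX2 peak, chr3:150370184-150370300, had a rank of 45.4% and the MTA1 peak 5.72%. In 2 other shared sites of the TSC22D2 window the MTA1 peak was the stronger, at chr3:150371863-150372187 with a rank of 88.2% beside a RUNX2 score of 6.71, close to the median of its list, and at chr3:150469686-150469916 with 87.6% against 53.7%. They lay 36.3 kb before that end and 61.5 kb after it, the latter beyond the far end of the gene.

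The TSC22D3 window held 7 RUNX2 and 3 MTA1 peaks, and all 3 MTA1 peaks overlapped a RUNX2 peak. At the first starts the RUNX2 peak had a score of 8.60 and a rank of 62.5%, and the MTA1 peak at chrX:107775867-107775982, of the narrowest width, had a rank of 30.5%. A start of NCBP2L lay within 3 kb of the same peaks. At start 3, 58.9 kb further on, the RUNX2 peak with the core motif printed above had a score of 5.11, higher than 27.2% of its list. No MTA1 peak overlapped it. The strongest RUNX2 peak of the window, chrX:107676897-107677246, lay 36.0 kb beyond the gene with a rank of 83.4%, against 24.4% for its MTA1 partner. A pair 1.89 kb beyond the gene had nearly equal ranks of 68.8% and 68.4%.

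TSC22D4, a family member linked to metabolic control in liver, had the densest window of the 9, at 7.10 RUNX2 and 6.21 MTA1 peaks per 100 kb. Most of these peaks were not at TSC22D4 itself. The gene is 12.7 kb long, and the only pair inside it lay on its start, with ranks of 47.3% for RUNX2 and 47.5% for MTA1. By contrast, 3 RUNX2 and 4 MTA1 peaks lay within 3 kb of a start of MEPCE or PPP1R35. Among them was the MTA1 peak of highest rank in any of the windows, chr7:100429131-100429488, with a score of 40.8 and a rank of 98.2%. The RUNX2 peak of highest rank in this window, chr7:100503027-100503386, lay 23.8 kb before the TSC22D4 start with a rank of 93.8%. A further RUNX2 peak of rank 92.0%, 37.0 kb before the start, overlapped no MTA1 peak.

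**Figure D2:**
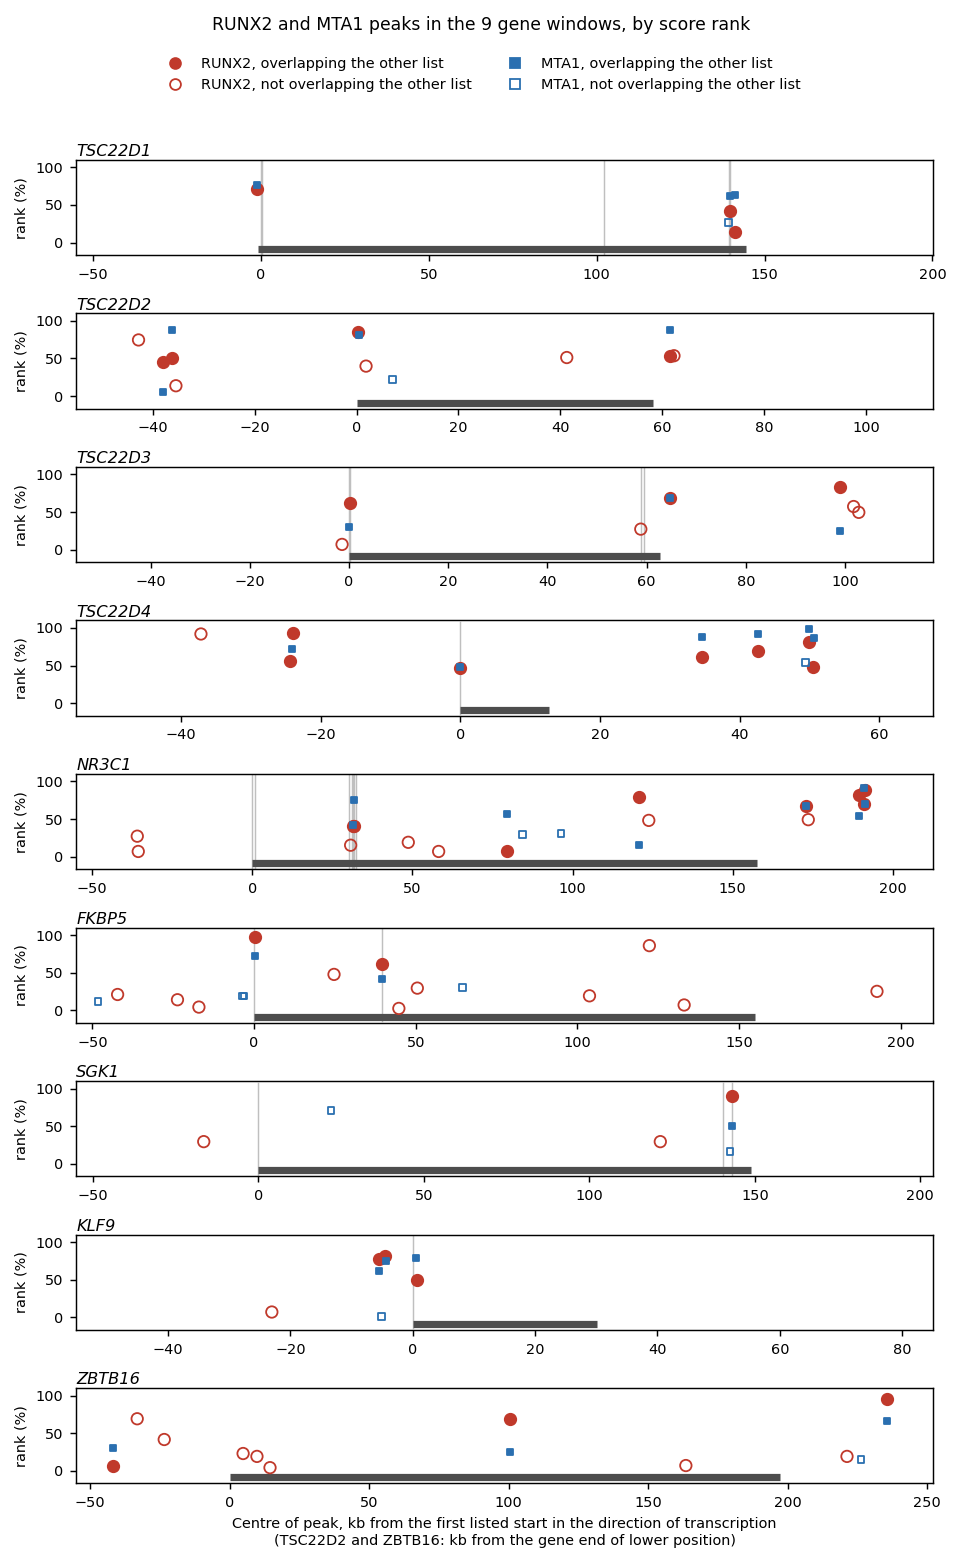
All 71 RUNX2 and 46 MTA1 peaks of the 9 windows. The horizontal axis is the position in kb along each gene, the vertical axis is the rank as the percent of the list with a lower score, dark bars are genes and grey lines are listed starts. TSC22D1 has peaks only near its ends, while FKBP5 and ZBTB16 hold many open symbols, which are peaks without a partner in the other list.

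NR3C1 encodes the glucocorticoid receptor and had the most peaks, 15 of RUNX2 and 10 of MTA1. The promoter windows used here give 7 starts for it. The first 2 had no peak of either list within 3 kb, whereas the group of 5 starts from 30.2 to 32.2 kb into the gene held 3 RUNX2 and 2 MTA1 peaks. The RUNX2 peaks there were weak, with ranks of 15.2%, 40.8% and 41.3%. Their MTA1 partners had ranks of 74.8% at chr5:143403719-143403881 and 41.7% at chr5:143403984-143404346. The highest-ranked sites of the window lay beyond the far end of the gene. A row of 3 shared sites 31.6 to 33.7 kb past that end had RUNX2 ranks of 88.6%, 70.4% and 82.2%, and MTA1 ranks of 70.3%, 91.5% and 54.6%. Inside the gene, the pair at chr5:143314766-143314931 (RUNX2) had ranks of 78.9% and 14.9%, the largest excess of RUNX2 over MTA1 among all pairs of the members.

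FKBP5 encodes a co-chaperone that lowers the affinity of the receptor for hormone. Just inside its first start lay the RUNX2 peak of highest rank in any of the windows, chr6:35728028-35728460, with a score of 41.2 and a rank of 97.3%. The MTA1 peak within it scored 12.2, a rank of 72.6%. At start 2, whose sequence is printed above, the ranks were 61.1% and 41.9%. The other 10 RUNX2 peaks of the window had no MTA1 partner, and 7 of the 12 were of the narrowest width. One of these unpaired peaks was strong, chr6:35606258-35606422, with a score of 18.8 and a rank of 85.9%, inside the gene.

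SGK1 encodes a serum- and glucocorticoid-induced kinase of the AKT group. Its window held 3 peaks of each list and a single pair. That pair lay at start 3, 143 kb into the listed gene, where the RUNX2 peak at chr6:134174841-134175117 had a score of 22.7 and a rank of 89.5%. The MTA1 peak that overlapped it, chr6:134174970-134175134, had a score of 7.55 and a rank of 49.8%. No peak lay within 3 kb of the first start. The MTA1 peak of highest rank in the window, 70.5%, lay 21.9 kb inside the first start with no RUNX2 peak on it.

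KLF9, a zinc finger factor induced by glucocorticoids and thyroid hormone, had 4 peaks of each list and 3 pairs. The pair just inside its start shared 29 bp, with ranks of 49.6% for RUNX2 and 78.3% for MTA1. The other pairs lay 4.30 and 5.30 kb before the start. There the RUNX2 ranks were 81.6% and 78.1%, and the MTA1 ranks 75.4% and 61.7%. ZBTB16, also called PLZF, is a strongly hormone-induced repressor in many cells. It was the only member with no peak of either list within 3 kb of a start, for which both ends of the gene were taken. Its window held 10 RUNX2 and 4 MTA1 peaks, of which 5 and 1 lay inside the gene. The strongest pair lay 38.3 kb above the gene, at chr11:114295035-114295447 with a rank of 95.2% for RUNX2 and at chr11:114295015-114295407 with 66.1% for MTA1.

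Of the peaks within 3 kb of a start, 12 of 16 RUNX2 and 12 of 15 MTA1 peaks had a partner. In the whole lists, wherever the peaks lay, 45.4% of RUNX2 and 65.5% of MTA1 peaks had one. The other 4 RUNX2 and 3 MTA1 peaks near a member start had no partner. Besides the RUNX2 peaks at start 3 of TSC22D3 and in NR3C1 (chr5:143404775-143404873, rank 15.2%), these were RUNX2 peaks at chr3:150410102-150410214 in TSC22D2, with a rank of 39.8%, and at chrX:107777342-107777440 before TSC22D3, with 6.85%. Besides the MTA1 peak over the primer match in TSC22D1, the MTA1 peaks of this kind were chr6:35731558-35731832 before FKBP5, with a rank of 18.8%, and chr6:134175528-134175741 in SGK1, with 16.4%.

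Across the members, 8 of 9 genes had overlapping RUNX2 and MTA1 peaks within 3 kb of a start, and ZBTB16 did not. Starts were those of the RefSeq promoter windows used here. Either end of the gene was taken where that set held no window, as for TSC22D2 and ZBTB16. Of all protein-coding genes, 46.9% had such an overlap, 57.2% had a RUNX2 peak and 57.3% had an MTA1 peak there. The median member is 145 kb long and the median gene 24.1 kb, and members have up to 7 listed starts, so the sequence searched differed between genes. The part of length and number of starts in the counts was not tested. The count depended on weak peaks: restricted to the upper part of each list, from its median score, it was 3 of 9, against 34.4% of all genes, and with the 10000 highest-scoring peaks it was 1 of 9, against 13.4%. The last was TSC22D2. Within the wider windows all 9 members had peaks of both lists, as had 90.8% of genes for RUNX2 and 86.6% for MTA1. An overlap of both lists in the window was seen in 9 of 9 members and in 80.1% of genes. The median member had 4.30 RUNX2 and 2.35 MTA1 peaks per 100 kb, and the median gene 3.55 and 2.58.

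**Figure D3:**
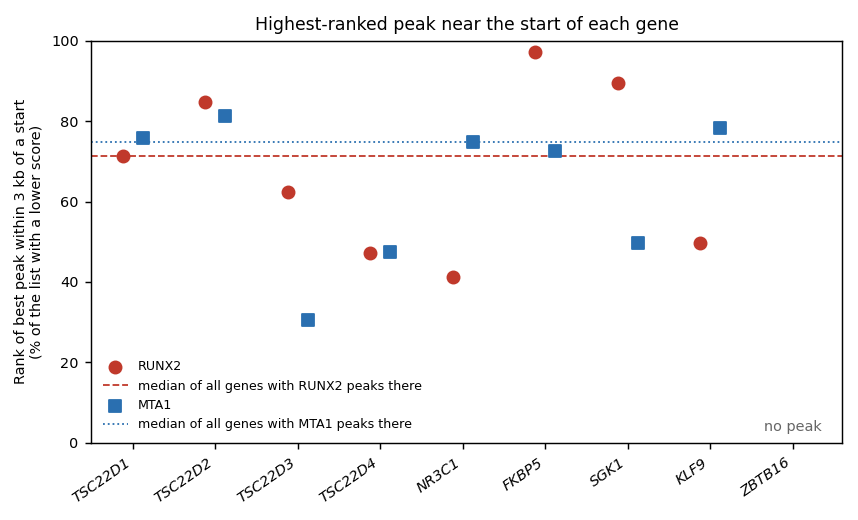
Rank of the best peak within 3 kb of a start of each member. The vertical axis is the percent of the list with a lower score, circles are RUNX2, squares are MTA1, and the lines are the medians of all genes with such a peak, 71.3% for RUNX2 and 74.7% for MTA1. FKBP5, SGK1 and TSC22D2 lie above the RUNX2 line, TSC22D1 lies on it, and ZBTB16 has no peak.

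By the best RUNX2 peak near a start, the order was FKBP5 (97.3%), SGK1 (89.5%), TSC22D2 (84.7%), TSC22D1 (71.3%), TSC22D3 (62.5%), KLF9 (49.6%), TSC22D4 (47.3%) and NR3C1 (41.3%). By the best MTA1 peak it was TSC22D2 (81.3%), KLF9 (78.3%), TSC22D1 (75.9%), NR3C1 (74.8%), FKBP5 (72.6%), SGK1 (49.8%), TSC22D4 (47.5%) and TSC22D3 (30.5%). With 1 library per antibody, no neighbours in either order can be said to differ. By these best peaks, which lay before its first start, TSC22D1 was close to the median gene in both lists. At starts 4 and 5, where the qChIP primer matched, its best ranks were 42.3% for RUNX2 and 62.9% for MTA1. Of 10021 genes with peaks of both lists near a start, 255 lay within 5 percentage points of the ranks 71.3% and 75.9% of TSC22D1. The nearest member was TSC22D2, at 14.4 points.

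The share of peaks with a partner was near that of the whole lists. Of the 71 RUNX2 peaks, 34 overlapped an MTA1 peak, or 47.9% (exact binomial 95% interval 35.9% to 60.1%), against 45.4% of all RUNX2 peaks. Of the 46 MTA1 peaks, 33 had a RUNX2 partner, or 71.7% (56.5% to 84.0%), against 65.5%. These intervals cover counting error over peaks only. RUNX2 peaks within 3 kb of a start had a partner in 12 of 16 cases and those elsewhere in 22 of 55. Among the 21 RUNX2 peaks of the narrowest width, 99 bp, 3 had a partner, and among the 50 wider ones 31 had. Neither split was made for the whole lists, so these shares cannot be called particular to the members. The TSC22 family had a partner at 17 of 27 RUNX2 peaks, or 63.0% (42.4% to 80.6%), and the glucocorticoid group at 17 of 44, or 38.6% (24.4% to 54.5%). The intervals overlap, and 19 of the 44 peaks in the glucocorticoid group were of the narrowest width, against 2 of 27 in the family. Within the family, 7 of 8 RUNX2 peaks in the TSC22D4 window had a partner, and 3 of those 8 lay near a start of another gene. The shares were 3 of 3 at TSC22D1, 4 of 9 at TSC22D2 and 3 of 7 at TSC22D3. The part of peak width, or of the TSC22D4 window, in the difference between the groups was not tested.

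Where both lists had a peak, the order of their ranks varied from window to window. Of 34 pairs, the MTA1 rank was the higher in 18 (52.9%), against 42.7% of all 28440 pairs of the lists. The median difference, RUNX2 minus MTA1, was -0.20 percentage points over the members and 3.66 over all pairs. It was negative in TSC22D1, where 3 of 3 pairs had the higher MTA1 rank, and in the TSC22D4 window, with 6 of 7. Only 1 of these 7 pairs lay in TSC22D4 itself, at its start, with a difference of -0.20 points. The median difference was positive in TSC22D3, with the higher RUNX2 rank in 3 of 3 pairs, 1 of them by 0.40 points. In FKBP5 it was positive as well, with 2 of 2. In KLF9 and ZBTB16 it was positive too, at 6.24 and 29.1 points, with the higher RUNX2 rank in 2 of 3 pairs each. SGK1 had 1 pair, with a RUNX2 rank 39.8 points higher. In TSC22D2 each list had the higher rank in 2 of 4 pairs, with a negative median difference of -15.3 points. In NR3C1 the MTA1 rank was the higher in 5 of 8, with a median difference of -0.31 points. Over the 34 pairs Spearman's rho was 0.127, a description over sites that share libraries and not over replicates.

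**Figure D4:**
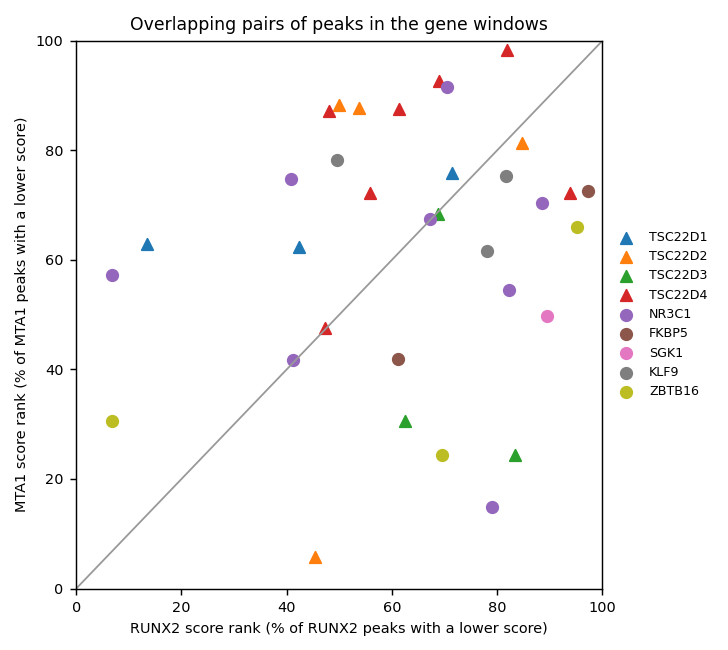
Score ranks of the 34 overlapping pairs. Each point is a RUNX2 peak and an MTA1 peak that share at least 1 bp, the axes are the percent of each list with a lower score, triangles are the TSC22 family and circles the glucocorticoid group. TSC22D1 and most TSC22D4 points lie above the line of equal rank, and FKBP5, SGK1 and TSC22D3 points lie below it.

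The promoter windows were searched for 5 motifs on both strands. The set used here held 23 RefSeq windows of 300 bases for 7 of the 9 members. Of these windows, 10 overlapped a RUNX2 peak and 9 an MTA1 peak. Neighbouring windows of a gene can overlap each other. The RUNX core TGTGGT occurred in 4 of 23 windows, of FKBP5, NR3C1 and TSC22D3, and in 11.3% of the 22199 windows of all protein-coding genes. Only the site at TSC22D3 printed above, at position -112 from start 3, lay inside a RUNX2 peak. At FKBP5 cores lay at positions -239 and -191 from the first start, outside the RUNX2 peak of rank 97.3%, which lies after that start. The palindromic glucocorticoid receptor element occurred in 0 of 23 windows and in 0 of the 22199. Its shorter site AGAACA was found in 3 windows, of FKBP5, SGK1 and TSC22D1, against 11.7% of all, and none of the 3 lay in a peak. The AP-1 site TGACTCA occurred in 1 window, at start 3 of TSC22D1, against 4.01% of all, and that start had no peak. GC boxes (GGGCGG) occurred in 12 of 23 windows and in 56.3% of all. No sequence outside these windows was searched.

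Other genes of the pathway were set beside the members. Of 25 further glucocorticoid-induced genes, 14 had overlapping peaks of both lists within 3 kb of a start, against 46.9% of all genes. Of these 25, 20 had a RUNX2 peak and 16 an MTA1 peak there, against 57.2% and 57.3% of all genes. The median best RUNX2 rank of the 25 genes in the window was 93.4%, and that of all genes with such a peak was 87.2%. The highest were ANGPTL4, a lipase inhibitor, with 99.9%, the metallothionein MT1X with 99.9% and CRISPLD2 with 99.5%. Within 3 kb of a start the best RUNX2 ranks of these 3 genes were 98.9%, 99.9% and 15.2%. Of 18 partners of the receptor, 13 had the overlap near a start. They were led by HSD11B1, which regenerates active cortisol, with a best RUNX2 rank of 99.3% in the window, and by the chaperone genes STIP1 with 98.4% and HSP90AB1 with 98.2%. Near a start the best RUNX2 ranks were 47.5% for HSD11B1, 98.4% for STIP1 and 64.7% for HSP90AB1. Of 8 partners of TSC22 proteins, kinases and pseudokinases of the WNK pathway, 5 had the overlap near a start, and OXSR1, WNK4 and WNK1 were highest with 99.1%, 95.6% and 93.0%. The best RUNX2 ranks near a start were 98.0%, 41.8% and 93.0% for these 3 genes. Every gene of these lists had at least 1 peak in its window. Windows hold other genes too, so a high-ranked peak need not belong to the named gene.

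Genes with a known state in the line were also looked at. Their lists were chosen with earlier results of these data known, so they are not an independent check. CDKN2A and CDKN2B, which are deleted in MDA-MB-231, had no peak of either list in their windows, while 9.21% of genes lacked a RUNX2 peak and 13.4% an MTA1 peak. VIM, CD44, EGFR, AXL and CAV1, which this mesenchymal line uses, had overlapping peaks near a start in 5 of 5. ESR1, PGR, FOXA1, CDH1 and KRT5, which it uses little, had them in 0 of 5. Of all protein-coding genes, 46.9% had them. In the whole windows, overlapping peaks occurred at 5 of 5 used and 4 of 5 little-used genes, against 80.1% of all genes. The median best RUNX2 rank in the window was 95.7% for the used and 68.8% for the little-used genes. Among the latter, CDH1 had 96.8%.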

How the data were processed

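CUT&Tag peaks of 1 RUNX2 and 1 MTA1 library were used. The authors called peaks in each library and deposited their positions with a score of unstated scale. The submitters' processing notes name CASAVA 1.4, Bowtie 0.12.8, MACS and MACS2, without roles, and the build hg19. The positions were nevertheless those of GRCh38: 18.2% of RUNX2 and 25.5% of MTA1 peak centres lay within 1 kb of a start listed on GRCh38.p14, against 3.06% and 3.18% after a move of 100 kb, and the share fell on 22 of 22 chromosomes compared. Threshold and control library are not given in the sources used here, and depth is unknown.

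Peaks on nuclear chromosomes entered, and 17 RUNX2 and 15 MTA1 mitochondrial peaks were left out. The rank of a peak is the percent of its list with a lower score, and between lists only ranks were compared. A peak belonged to a window when it overlapped it by 1 bp, and overlap between lists was 1 bp. Starts came from RefSeq promoter windows, present for 15842 of 20037 protein-coding genes. Either end was used for the rest. No test was possible with 1 library per antibody. Overlap and window counts were tested on simulated data. Scripts ran in Python 3.11.15 with scipy 1.17.1 for intervals, matplotlib 3.10.9 for plots, and pandas 2.3.3 and numpy 2.4.6. The members, lists, motifs and alternatives were chosen with earlier results of these data known. Named genes were the 9 members with every peak near a start and, from the 3 highest-ranked peaks of each list and window, those described in the text, the 3 genes of each further list with the highest-ranked RUNX2 peak, any gene of these lists with no peak, and the 3 genes most like TSC22D1, which are not reported here.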

Additional observations from a re-analysis of the deposited data

How the results depend on the processing

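Each alternative changed 1 choice. The share of RUNX2 peaks with a partner (47.9%) stayed within its interval under each window, with the upper part of each list from its median score, with peaks wider than the narrowest and with centres within 200 bp, and so did that of MTA1 (71.7%). When each peak of a pair had to be covered by 50%, the shares were 32.4% and 50%, lower by construction. Among the top 10000 peaks per list they were 12.5% and 11.1%, on 8 RUNX2 and 9 MTA1 peaks. Both lists were cut before overlap was counted, so a partner below the top 10000 of its own list no longer counted. The FKBP5 RUNX2 peak of rank 97.3%, for example, has a partner of rank 72.6% in the full MTA1 list. These shares therefore do not show how often strong peaks have a partner in the full lists. The cut at the median score worked the same way. Counts of peaks followed the window and the set of peaks by construction. With 10 kb on either side there were 39 RUNX2 and 29 MTA1 peaks, and the median count per member and list, 5.5 at first, was 3.5. With 100 kb the MTA1 peaks were 72 and the median 9.5. In the gene body alone they were 33, 22 and 2.5. At or above the median score they were 31, 25 and 3, and with the 10000 highest-scoring peaks the median was 1.

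Near starts, 8 of 9 members had RUNX2 peaks, MTA1 peaks and overlaps, against 57.2%, 57.3% and 46.9% of all genes. A distance of 1 kb gave 8, 8 and 8, against 49.8%, 51.2% and 42.4%. Peaks at or above the median score gave 5, 5 and 3, against 42.3%, 42.9% and 34.4%. The 10000 highest-scoring peaks gave 3, 2 and 1, against 16.6%, 27.2% and 13.4%. Without peaks of the narrowest width the counts were 8, 7 and 7, against 50.9%, 52.2% and 43.2%. When each peak of a pair had to be covered by 50%, 6 members had overlaps, against 37.9%. With centres within 200 bp it was 8, against 46.7%. Merging peaks within 500 bp gave 8 and 8 for the single lists, against 57.2% and 57.3%. Of 18 counts per member and list, 8 fell to 0 with the 10000 highest-scoring peaks, and none did under the other settings. No paired analysis was possible because each antibody has 1 library. The unknown depth limits weak peaks most, so an empty start was not shown to be unbound.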
